A study of Mus musculus with 2 samples.

Results

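Of the 31053 genes in the feature list, 5 genes, namely the galectin genes Lgals1, Lgals3, Lgals8 and Lgals9 and the galectin-binding glycoprotein gene Lgals3bp, were followed through single cells sorted from the region of the mouse cribriform plate. Their identifiers are ENSMUSG00000068220, ENSMUSG00000050335, ENSMUSG00000057554, ENSMUSG00000001123 and, for Lgals3bp, ENSMUSG00000033880. The 5 genes were listed by name, and each was measured in every cell with at least 200 detected genes and at most 20% mitochondrial molecules. The cribriform plate is the sieve-like bone between brain and nose, crossed by olfactory nerves and by lymphatic vessels. One sample was a pool of cells from 5 mice with autoimmune encephalomyelitis (EAE), a disease model in which immunisation brings on inflammation of brain and spinal cord, and the other a pool from 5 healthy mice. All mice were wild-type C57BL/6J females, 10 weeks old. Both pools were sorted as Podoplanin+, CD31+, CD45- and negative for the dead-cell stain Ghost dye, a gate meant for lymphatic endothelial cells. The design set out to compare these vessels between the inflamed and the healthy state.

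The 2 pools were deposited as 1 matrix of unique molecular identifier (UMI) counts, in which cell barcodes end in 1 or 2. Nothing in the sources used here ties either suffix to EAE or to healthy mice, so they are called library 2 and library 1, and no value below compares EAE with health. Each library is 1 sample without a replicate, so differences between them carry no test. Intervals are exact 95% intervals that cover counting error only, not the spread between mice.

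Galectins are lectins made in the cytosol that bind beta-galactoside sugars. They leave the cell by an unconventional route, cross-link glycoproteins at cell surfaces, and inside the cell mark lysosomes whose membrane has broken and exposed its sugars. In the brain, galectin-3 is known from activated microglia and galectin-9 as a ligand of the inhibitory receptor TIM-3. Lgals3bp encodes a secreted, heavily glycosylated partner of galectins that carries no galectin domain of its own. Interferon response elements, short runs of GAAA spaced by a few bases, are the textbook sites through which interferon acts on promoters. The promoters of Lgals9 and Lgals3bp are shown because these 2 members each hold such a run upstream of their start in RefSeq (build GRCm38.p6). Capitals mark the match, and each window of 30 bases is printed 5′ to 3′ on the minus strand.
Lgals9, chr11:78984960-78984989: tgacatcagcTTTCTTTTTCtctagacact
Lgals3bp, chr11:118401960-118401989: tcatgtgttttctGAAAATCGAAActaggt
The Lgals9 match is GAAANNGAAA read on the opposite strand, 55 to 46 bases upstream of the start. The Lgals3bp match is GAAANNNGAAA, 17 to 7 bases upstream, with a spacing that was chosen after the sequence had been read. By symbol, 4 of the 5 members were matched to a promoter, all but Lgals1. Over the 250 bases upstream of 32851 promoters and on both strands, 2.98% held GAAANNGAAA and 2.38% held GAAANNNGAAA. Lgals3 and Lgals8 held neither. A further motif, TTCNNNGAA, was also searched and was held by 7.02% of these promoters, with no match recorded for a member. A run of letters describes the sequence and is not evidence of a factor at work there.

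Library 2 held 1922 kept cells with 20282053 UMIs and a median of 9782.5 per cell, and library 1 held 3406 kept cells with 25766058 UMIs and a median of 7334. Barcode sequences were seldom shared, with 7 kept barcode sequences in both. Microglia-like cells, named from markers of the brain's resident macrophages, made up 89.2% of library 2 and 92.8% of library 1. In these cells the 6 markers of lymphatic endothelium summed to 6.26 CPM (counts scaled to a total of 1000000 UMIs) in library 2, where Pdpn and Mmrn1 were at 0, and to 15.02 CPM in library 1, where Flt4 was at 0. No cluster was named lymphatic-endothelial-like. Among all kept cells, 0 cells of library 2 and 3 cells of library 1 held at least 3 of these 6 markers. In the unnamed cluster 7 the lymphatic list stood at 6.60 CPM in 101 cells of library 2 and 837 CPM in 87 cells of library 1. The 8 markers of microglia had 4115 CPM between them in library 2, and 11064 CPM in library 1.

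Lgals3bp and Lgals3 were the members with the higher levels in library 2, Lgals9 was higher by less, Lgals8 was lower, and Lgals1 was near its detection floor in most cells. Over all kept cells Lgals3bp reached 961 CPM (interval 948 to 975) in library 2 and 84.0 CPM (80.5 to 87.6) in library 1. Lgals9 stood at 161 CPM (156 to 167) in library 2 and 96.1 CPM (92.39 to 99.996) in library 1. Lgals3 stood at 55.9 CPM (52.7 to 59.3) in library 2 and 14.5 CPM (13.04 to 16.02) in library 1. Library 2 was above library 1 in each of these. Lgals8 ran the other way, with 45.4 CPM (42.5 to 48.4) in library 2 and 60.7 CPM (57.7 to 63.7) in library 1. Lgals1 had 194 UMIs in all of library 2, or 9.57 CPM (8.27 to 11.01), and 173 UMIs in library 1, or 6.71 CPM (5.75 to 7.79).

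The order of the 5 levels differed between the libraries. In library 2 Lgals3bp was first, then Lgals9, Lgals3, Lgals8 and Lgals1. In library 1 Lgals9 was first, then Lgals3bp, Lgals8, Lgals3 and Lgals1. All neighbours in both orders were apart beyond their counting intervals. These are UMI counts tagged at 1 end of a transcript, so they were compared without a correction for length. The rest of the family was scarce. Lgals4 had 45 UMIs in library 2 and 26 in library 1, Lgals2 had 17 in library 2 and 14 in library 1, and the galectin-like gene Lgalsl had 74 in library 2 and 118 in library 1. Lgals7, Lgals12 and Grifin had at most 3 UMIs in either library.

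**Figure D1:**
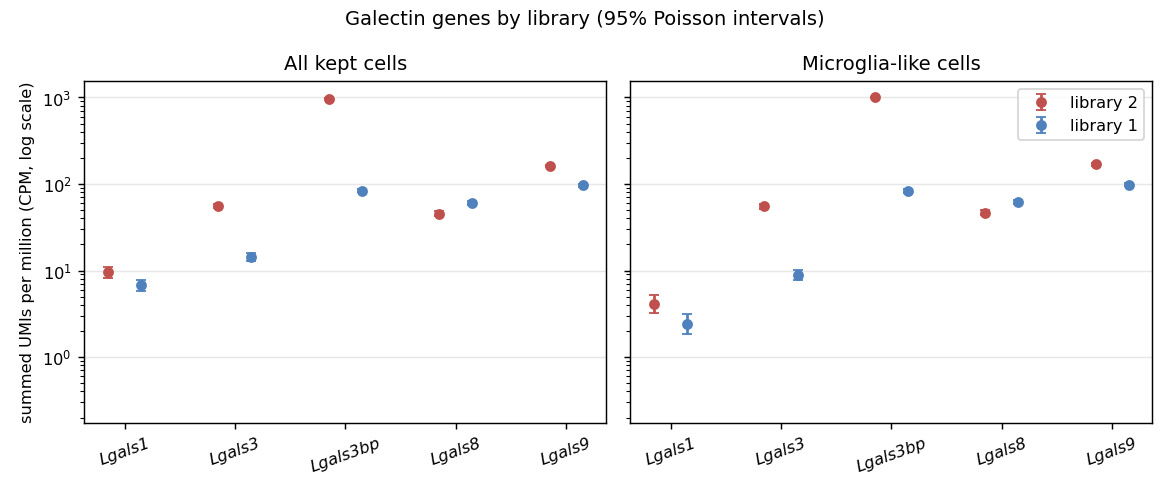
Level of each galectin gene (CPM, log axis) in all kept cells (left) and in microglia-like cells (right), with library 2 in red and library 1 in blue and bars for 95% Poisson intervals. Lgals3bp sat at 1009 CPM in library 2 and 83.0 CPM in library 1 among microglia-like cells, while Lgals8 was lower in library 2.

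Within microglia-like cells each member kept the direction it had over all kept cells. This class held 1715 cells of library 2, mostly in clusters 11, 12, 13 and 14, and 3160 cells of library 1, mostly in clusters 0 to 4, so different clusters carry it in each library. Lgals3bp had 18852 UMIs in library 2, or 1009 CPM (995 to 1024), and 1999 UMIs in library 1, or 83.0 CPM (79.4 to 86.7), a ratio of 12.2 (11.6 to 12.7). Lgals3 had 1033 UMIs in library 2, or 55.3 CPM (52.0 to 58.8), and 213 UMIs in library 1, or 8.84 CPM (7.69 to 10.1), a ratio of 6.26 (5.39 to 7.29). Lgals9 had 168 CPM (162 to 174) in library 2 and 98.1 CPM (94.2 to 102) in library 1, a ratio of 1.72 (1.63 to 1.81). Lgals8 had 46.6 CPM (43.6 to 49.8) in library 2 and 61.8 CPM (58.7 to 65.1) in library 1, a ratio of 0.754 (0.693 to 0.820). Lgals1 had only 77 UMIs in library 2, or 4.12 CPM (3.25 to 5.15), and 58 in library 1, or 2.41 CPM (1.83 to 3.11), a ratio of 1.71 (1.20 to 2.45).

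On a log2 scale with 10 CPM added to each level, 2 of the 5 members, Lgals3bp at 3.45 and Lgals3 at 1.79, were at least 2-fold higher in library 2. Of all 12360 genes with at least 20 UMIs in this class, a minimum that all 5 members passed, 2.87% were as much higher. No member was at least 2-fold lower, against 2.25% of all genes. Over all kept cells the same 2 members passed, against 2.76% of 13891 genes, and none was as much lower, against 1.92%. The median over all genes of the class was -0.00473 (log2). Against that, Lgals9 stood at 0.72, Lgals1 at 0.19 and Lgals8 at -0.34. Ranked among all these genes, Lgals3bp lay at percentile 99.8, Lgals3 at percentile 99.0, Lgals9 at percentile 94.97, Lgals1 at percentile 75.4 and Lgals8 at percentile 15.2.

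The makeup of the galectin transcripts differed as well. Together the 5 members made up 1284 CPM in microglia-like cells of library 2, against 254 CPM in those of library 1. Lgals3bp supplied 78.6% of that sum in library 2 and 32.6% in library 1. Lgals9 supplied 13.1% in library 2 and 38.6% in library 1, and Lgals8 supplied 3.63% in library 2 and 24.3% in library 1. Lgals3 held a like share of the sum in both, 4.31% in library 2 and 3.48% in library 1.

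Other measures moved with these levels. The immediate early and heat shock genes, a list of 20 that tissue handling can raise, took 2.67% of UMIs in microglia-like cells of library 2 and 6.77% in library 1. Homeostatic microglia genes took 1.06% in library 2 and 1.98% in library 1. The type I interferon list of 19 genes took 0.427% in library 2 and 0.0497% in library 1. Of 5 monocyte markers, Plac8 had 73.1 CPM in library 2 and 1.58 CPM in library 1, while the whole list came to 75.3 CPM in library 2, against 3.61 CPM in library 1. The defining monocyte marker Ly6c2 had 9 UMIs in library 2 and 0 in library 1, and Ccr2 had 11 in library 2 and 41 in library 1. Astrocyte markers took 275 CPM of library 2 and 103 CPM of library 1, and dendritic cell markers took 39.7 CPM of library 2 and 298 CPM of library 1. The part of these in the galectin differences was not tested.

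To compare cells at equal depth, each microglia-like cell was thinned to 5000 UMIs, which left 1681 cells of library 2 and 2913 of library 1 and dropped 34 shallower cells of library 2 and 247 of library 1. Lgals3bp then shifted across nearly the whole population. Its mean was 4.98 UMIs per cell in library 2 and 0.378 in library 1, and its median was 4 in library 2 and 0 in library 1. At least 1 UMI was seen in 97.7% of cells of library 2 (96.9 to 98.4) and in 26.0% of library 1 (24.4 to 27.7). At least 5 UMIs were seen in 827 cells of library 2, or 49.2%, and in 13 cells of library 1, or 0.446%. The distributions overlapped at low counts, with exactly 1 UMI in 6.84% of cells of library 2 and 18.7% of library 1. In library 2, 38 cells, or 2.26%, had no UMI, and 30 cells of library 1, or 1.03%, reached the median of library 2. Without thinning, 98.8% of microglia-like cells of library 2 and 34.4% of library 1 had an Lgals3bp UMI.

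Free RNA in the droplets can place a UMI in a cell that does not make it, so the level in neurons was set beside these shares. Among sensory-neuron-like cells, 10 of 37 in library 2, or 27.0% (13.8 to 44.1), held an Lgals3bp UMI at a median depth of 11227, which is well under the share in microglia-like cells at a median of 9919. Their level was 27.5 CPM (14.7 to 47.1). An Lgals9 UMI was seen in 0 of 37 neuron-like cells of library 2, where 3 counts would make 8.11% of cells with a UMI, against 77.4% of microglia-like cells.

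Lgals3 was distributed differently from Lgals3bp. At 5000 UMIs per cell it was seen in 12.8% of microglia-like cells of library 2 (11.3 to 14.5) and in 2.06% of library 1 (1.58 to 2.64), and at least 2 UMIs were seen in 4.94% of library 2 and 0.858% of library 1. Most cells had none, and a few had many, up to 21 UMIs in library 2 and 9 in library 1. The variance was 3.50 times the mean in library 2 and 3.14 times in library 1, against 1.87 times for Lgals3bp in library 2 and 1.75 times in library 1. On all UMIs, the tenth of microglia-like cells with most Lgals3 held 82.7% of its UMIs in library 2, and the tenth with most Lgals3bp held 25.5%. So the excess of Lgals3 lay in a minority of cells, and that of Lgals3bp in almost all.

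For Lgals9 and Lgals8 the variance was 1.03 and 1.08 times the mean in library 2, and 1.09 and 1.03 times in library 1. Their means were 0.855 and 0.240 UMIs per cell in library 2, and 0.476 and 0.299 in library 1. At means this low counting error makes up most of the variance, so the ratio cannot show how evenly they were spread. Lgals9 was seen in 57.6% of thinned cells of library 2 (55.2 to 60.0) and in 37.0% of library 1 (35.2 to 38.8). Lgals8 was seen in 20.3% of library 2 (18.4 to 22.4) and in 25.4% of library 1 (23.9 to 27.1). Lgals1 was seen in 1.61% of library 2 (1.06 to 2.33) and in 1.06% of library 1 (0.724 to 1.51), and these intervals overlap.

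**Figure D2:**
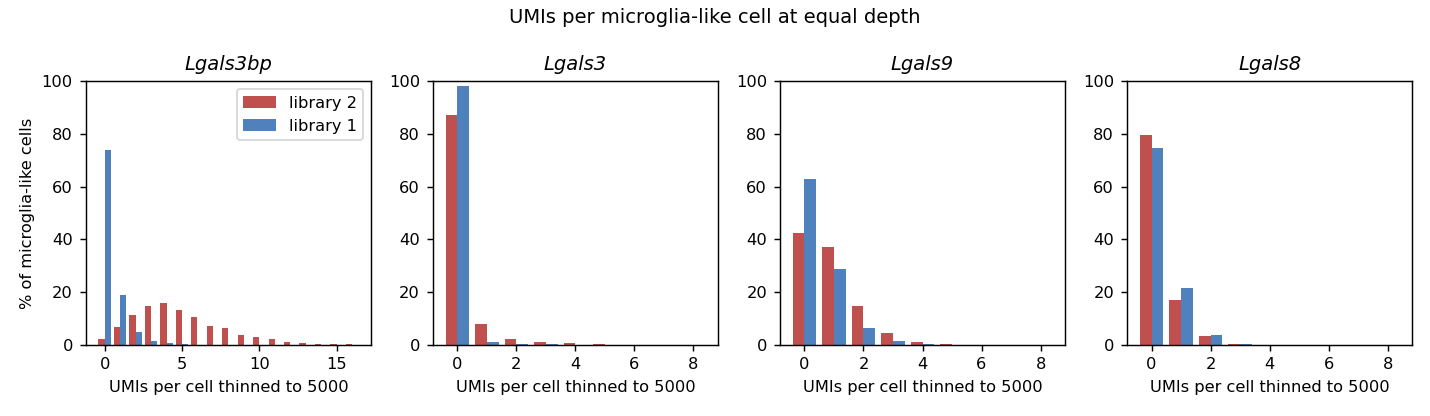
Share of microglia-like cells (vertical axis, %) by the number of UMIs per cell after thinning to 5000 (horizontal axis), with library 2 in red and library 1 in blue. The Lgals3bp bars peak at 4 UMIs in library 2 and at 0 in library 1, while most cells of both libraries lie at 0 for Lgals3.

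Cells were clustered with the members and all listed genes held out, so that the members did not shape the clusters. Lgals3bp was high in each of the 4 microglia-like clusters of library 2. It stood at 1095 CPM (1071 to 1119) in cluster 13, led by Cxcl9, Ccl5, Cxcl13 and Acod1, and at 974 CPM (945 to 1004) in cluster 12, led by Ifit3 and Mx1. It stood at 951 CPM (926 to 976) in cluster 11, led by C4b and H2-Eb1, and at 862 CPM (806 to 921) in cluster 14, led by the division genes Birc5 and Mki67. Clusters 12 and 11 did not differ beyond their intervals. In library 1, clusters 0 to 4 ran between 56.1 CPM in cluster 4 and 95.01 CPM in cluster 0, far below each of the 4.

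A few cells of library 1 fell into clusters that library 2 filled. These 16 cells in clusters 11, 12 and 13, none with a barcode sequence found in library 2, had 670 CPM of Lgals3bp (568 to 784), 170 CPM of Lgals9 (121 to 232) and 39.1 CPM of Lgals3 (17.9 to 74.3). The 3125 cells of library 1 in clusters 0 to 4 had 75.4 CPM of Lgals3bp (72.0 to 79.0), 96.8 CPM of Lgals9 (92.8 to 101) and 8.44 CPM of Lgals3 (7.31 to 9.70). The type I interferon list took 0.535% of UMIs in the 16 cells and 0.0436% in the 3125. The 19 dividing cells of library 1 lay between, at 233 CPM of Lgals3bp (181 to 297) with 0.171% of UMIs from that list. So rare cells of library 1, grouped by genes other than the members, had Lgals3bp levels far above those of its clusters 0 to 4. The 16 cells still lay under every microglia-like cluster of library 2, the lowest of which was cluster 14 at 862 CPM (806 to 921).

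Lgals3 was concentrated in cluster 13 of library 2, at 102 CPM (95.2 to 110) and with a UMI in 35.2% of 588 cells. That cluster held 67.9% of all Lgals3 UMIs of library 2. Cluster 14 had 50.2 CPM (37.4 to 66.1), cluster 11 had 22.1 CPM (18.4 to 26.2) and cluster 12 had 19.4 CPM (15.5 to 24.1), so clusters 11 and 12 did not differ beyond their intervals. At a finer resolution of 2, the highest level was 133 CPM (120 to 147) in 234 cells led by Apoc1, Saa3 and Lgals3 itself, 41.5% of which held an Lgals3 UMI. Next came 200 cells led by Cxcl9 and Acod1, at 113 CPM (101 to 127), whose interval overlaps the first. In library 1 clusters 0 to 4 ran between 0.856 CPM in cluster 0, from 1 UMI, and 14.4 CPM (11.9 to 17.2) in cluster 2, which was led by Gadd45b and Il1a.

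Lgals9 varied less among microglia-like clusters than Lgals3 did. In library 2 it stood at 206 CPM (179 to 236) in the dividing cluster 14, 177 CPM (164 to 190) in cluster 12, 165 CPM (156 to 175) in cluster 13 and 159 CPM (149 to 170) in cluster 11, and no neighbours in this order were apart beyond their intervals, while cluster 14 was apart from clusters 13 and 11. In library 1, clusters 0 to 4 ran between 75.3 CPM (60.4 to 92.8) in cluster 0 and 105 CPM (96.3 to 115) in cluster 1, whose intervals do not meet.

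The highest Lgals3 level of the series was in 10 cells of library 1 that made up cluster 6, which was left unnamed. The 10 highest folds of the cluster included Ifitm1, Cyp11a1, Cd200r3, Fcer1a, Cpa3 and Gata2. In these 10 cells microglia markers summed to 1265 CPM and monocyte markers to 2293 CPM. Plac8 was the only monocyte marker among the top 50 folds of the cluster. All 10 held Lgals3, with between 4 and 12 UMIs per cell and a median of 7. Their 71 UMIs came to 1197 CPM (935 to 1510) and were 19.0% of all Lgals3 UMIs of library 1, in which the other 3396 kept cells stood at 11.7 CPM. Library 2 had 1 cell in this cluster, with 2 Lgals3 UMIs. That cell had 0 CPM of microglia markers, 0 CPM of monocyte markers and 1884 CPM of T or NK cell markers.

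Lgals1, which encodes galectin-1, had 39.7% of its UMIs in microglia-like cells in library 2 and 33.5% in library 1. The share in library 2 depended on a single barcode, described below. Cluster 7, a mixture of barcodes with haemoglobin, collagen and vessel genes that was left unnamed, had 229 CPM (187 to 277) in library 2 and 211 CPM (166 to 263) in library 1. Its makeup differed between the libraries, with fibroblast markers at 9640 CPM in library 2 and 331 CPM in library 1, and red blood cell markers at 0 in library 2 and 22632 CPM in library 1. It supplied 53.6% of Lgals1 UMIs of library 2 and 44.5% of library 1. In library 2 a single barcode of 34195 UMIs in cluster 7 held 90 of the 194 Lgals1 UMIs, and the next highest cell held 4. With it left out, cluster 7 of library 2 kept 14 Lgals1 UMIs, fewer than the 77 of microglia-like cells. Without that barcode cluster 7 of library 2 stood at 33.3 CPM of Lgals1 (18.2 to 55.9), under the 211 CPM of library 1, or 176 CPM (135 to 225) when the barcode with most Lgals1 is left out of library 1 too. That barcode had UMIs of all 5 fibroblast markers and of 3 of 5 osteoblast or chondrocyte markers. Without it library 2 stood at 5.14 CPM, under the 6.71 CPM of library 1, so the direction of the Lgals1 difference over all kept cells rested on that barcode. In library 1 the top cells held 15, 9 and 7 UMIs. Border-macrophage-like cells, found in library 1 alone as 43 cells, had 54.9 CPM of Lgals1 (35.8 to 80.4), against 2.41 CPM (1.83 to 3.11) in microglia-like cells of that library. Their Lgals3 level was 44.3 CPM (27.4 to 67.7), against 8.84 CPM (7.69 to 10.1), while their Lgals9 level of 90.7 CPM (65.7 to 122) overlapped that of microglia-like cells.

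In cells named olfactory-ensheathing-like, the glia that wrap olfactory nerves, Lgals3bp stood at 639 CPM (573 to 709) in 62 cells of library 2 and 63.2 CPM (35.4 to 104) in 38 cells of library 1. Most of this came with microglia transcripts in the same barcodes. The 38 cells of library 2 with 3 or more of the 8 microglia markers had 782 CPM (702 to 869), and the 24 with at most 2 had 55.4 CPM (20.3 to 121), from 6 UMIs. Microglia markers summed to 3563 CPM in the 38 and to 111 CPM in the 24. Lgals9 followed the same split, with 125 CPM (94.2 to 163) in the 38 and 9.24 CPM (0.234 to 51.5) in the 24.

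**Figure D3:**
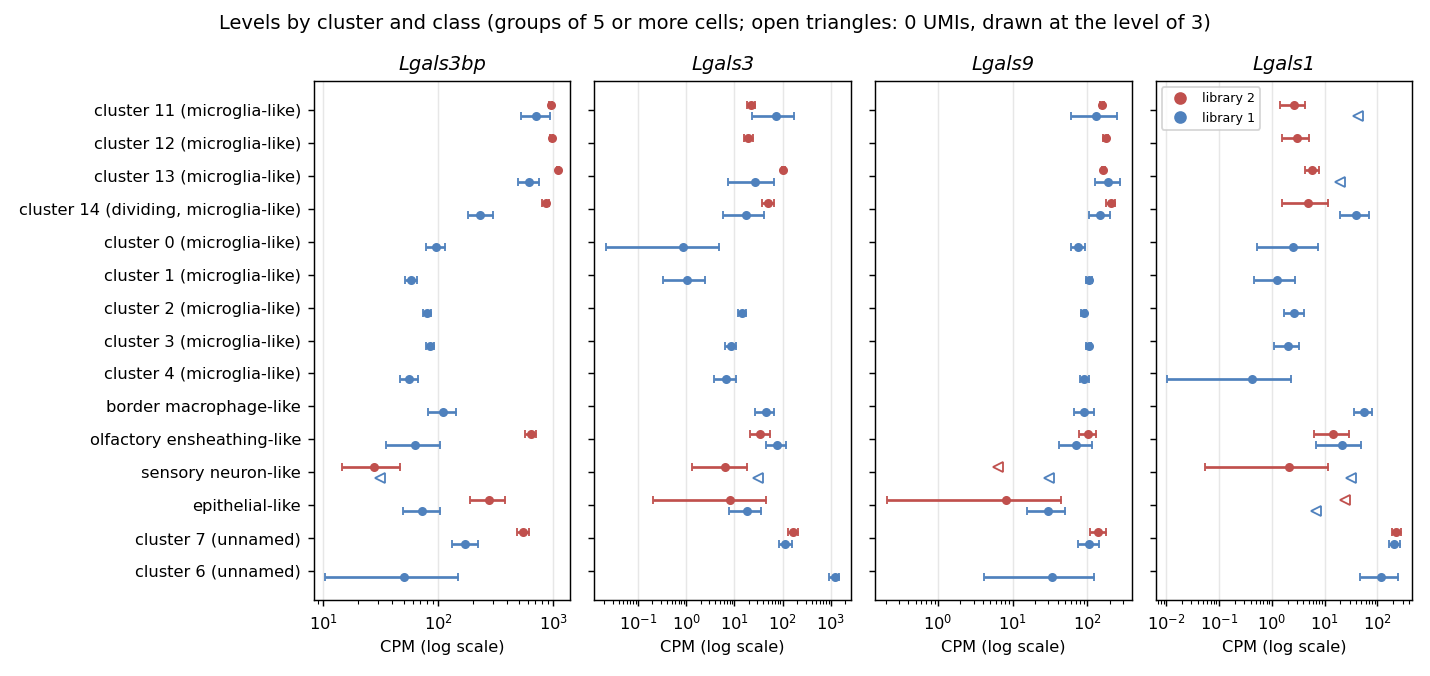
Level of 4 members (CPM, log axis) in each cluster or class of at least 5 cells, with library 2 in red above library 1 in blue, bars for 95% Poisson intervals and open triangles for groups with 0 UMIs, drawn at the level of 3 UMIs. Lgals3bp lies between 862 and 1095 CPM in clusters 11 to 14 of library 2 and between 56.1 and 95.01 CPM in clusters 0 to 4 of library 1, while the highest Lgals3 point is the 1197 CPM of cluster 6.

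Within each library, microglia-like cells were ranked by the share of their UMIs that came from a list of response genes, and the upper tercile (cells cut into 3 equal groups) was set against the lower. The members are in none of the 6 lists. All of these lists were scored on the same cells, so a common source such as depth or free RNA can move a list and a member together. Ranks by the type I interferon list separated Lgals3bp in library 1, at 145 CPM (137 to 153) in the upper tercile and 43.7 CPM (39.1 to 48.6) in the lower, a ratio of 3.32 (2.94 to 3.76). In library 2 the same ranking left it level, at 1009 CPM in the upper tercile and 1000 CPM in the lower, a ratio of 1.01 (0.974 to 1.05). The list took 0.661% of UMIs in the upper tercile of library 2 and 0.231% in its lower tercile, and 0.109% in the upper tercile of library 1, so the lower tercile of library 2 was above the upper tercile of library 1. For Lgals9 the ratio by that list was above 1 in both, at 1.41 (1.29 to 1.55) in library 2 and 1.27 (1.15 to 1.40) in library 1. Lgals3 had ratios of 1.37 (1.17 to 1.61) in library 2 and 4.13 (2.76 to 6.35) in library 1, and Lgals1 had 2.21 (1.18 to 4.34) in library 2 and 3.53 (1.59 to 8.89) in library 1. By the interferon gamma list of 13 genes Lgals3 ran the other way in library 1, at 0.390 (0.268 to 0.559), and was level in library 2, at 1.03 (0.889 to 1.19). Lgals3bp by that list had 1.07 (1.03 to 1.11) in library 2 and 1.97 (1.77 to 2.21) in library 1.

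Lgals3 followed the disease-associated microglia list, genes such as Cst7, Lpl and Itgax that microglia turn on around damage. It stood at 92.4 CPM in the upper tercile of library 2 and 19.0 CPM in the lower, a ratio of 4.87 (3.99 to 6.00). In library 1 it stood at 21.6 CPM in the upper tercile and 0.901 CPM in the lower, a ratio of 24.0 (11.4 to 60.4). By homeostatic genes such as P2ry12 and Tmem119 the direction was the opposite, with 14.1 CPM in the upper tercile of library 2 and 107 CPM in the lower, and 1.247 CPM in the upper tercile of library 1 and 16.8 CPM in the lower. For Lgals3bp the ratio by the disease-associated list was 1.16 (1.11 to 1.20) in library 2 and 1.80 (1.62 to 2.01) in library 1, and Lgals9 had 0.778 (0.712 to 0.849) in library 2 and 1.06 (0.958 to 1.17) in library 1. So Lgals3 and Lgals9 went opposite ways along that list in library 2. By MHC class II genes Lgals3 was lower in the upper tercile, with ratios of 0.591 (0.505 to 0.690) in library 2 and 0.675 (0.480 to 0.943) in library 1. Lgals8 stayed between 0.857 and 1.24 over all 6 lists and both libraries.

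The share of the immediate early and heat shock list was 4.23% in the upper tercile of library 2 and 4.03% in the lower tercile of library 1. A like share does not mean like stress. In microglia-like cells the ratios of the list's genes, library 2 over library 1, ran from 0.0374 to 0.707. Lgals3bp stood at 930 CPM (906 to 955) in that tercile of library 2 and at 97.2 CPM (90.4 to 104) in that tercile of library 1. For Lgals3 the gap was smaller than over the whole class. It stood at 23.9 CPM (20.08 to 28.1) in library 2 and 16.8 CPM (14.1 to 19.98) in library 1. Lgals9 was higher in library 2, at 166 CPM against 101 CPM, while Lgals8 and Lgals1 were lower there. Upper over lower tercile of this list, Lgals3 had ratios of 0.283 (0.234 to 0.342) in library 2 and 0.428 (0.309 to 0.586) in library 1. The part of stress in these levels was not tested.

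**Figure D4:**
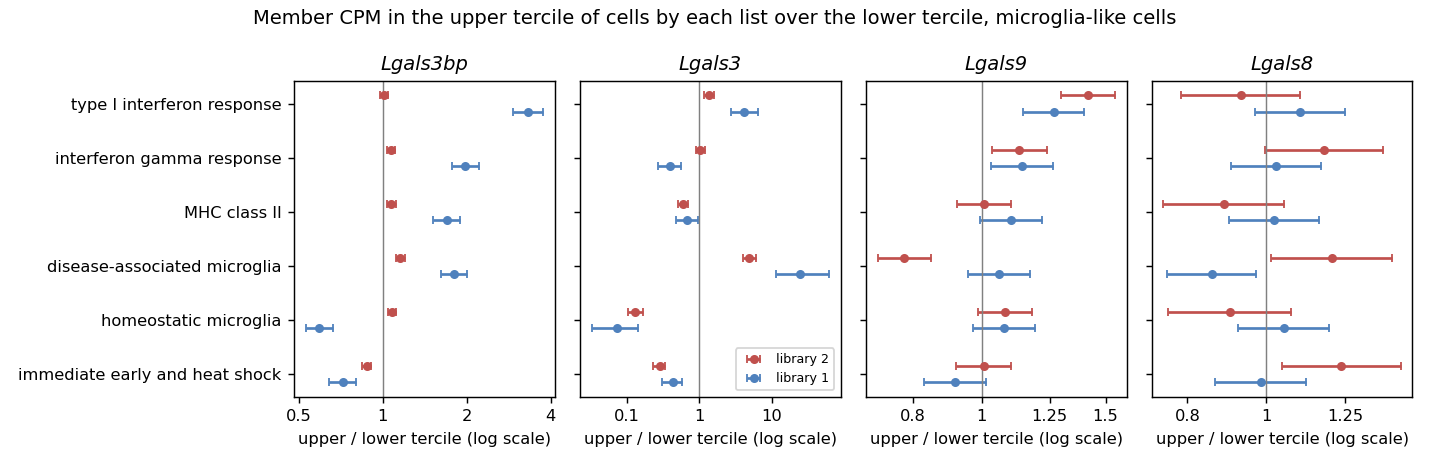
Ratio of each member's CPM in the upper tercile of microglia-like cells over the lower tercile (log axes), ranked by the UMI share of each of 6 gene lists, with library 2 in red above library 1 in blue and bars for 95% intervals. The Lgals3bp ratio by type I interferon genes is 1.01 in library 2 and 3.32 in library 1, and the widest spread is that of Lgals3.

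Cells rich in Lgals3 were described at equal depth. In library 2, 83 cells had at least 2 Lgals3 UMIs per 5000, 62 of them in cluster 13. Disease-associated genes took 6.17% of their UMIs and 4.07% in the other 1598 cells. Monocyte markers made up 26.5 CPM in the 83 cells and 74.7 CPM in the rest, and border macrophage markers made up 31.3 CPM in the 83 cells and 10.3 CPM in the rest. Their part in the Lgals3 levels was not tested. In library 1, 25 cells passed the same mark, 15 of them in cluster 2, with 3.40% of UMIs from disease-associated genes against 1.80% in the other 2888. At least 1 Lgals3bp UMI was seen in 56.0% of those 25 (34.9 to 75.6) and 25.8% of the 2888 (24.2 to 27.4). The 13 cells of library 1 with 5 or more Lgals3bp UMIs had 0.369% of UMIs from the type I interferon list and 0.511% from MHC class II genes, against 0.0431% and 0.0971% in the other 2900. Border macrophage markers stood at 108 CPM in the 13 cells and 6.76 CPM in the 2900, and monocyte markers at 15.4 CPM in the 13 and 2.90 CPM in the 2900. Their part in the Lgals3bp levels was not tested.

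Across single microglia-like cells, Pearson's r of log-scaled levels named the genes most like each member, as a description of cells that share a library and differ in depth. Only values of at least 0.3 were taken up. In library 2, over 1715 cells and 9237 genes, Lgals3 was most like Fabp5 (r = 0.38), a fatty acid carrier, Ctsb (0.33), a lysosomal protease, and Ftl1 (0.30), ferritin light chain. Fabp5 and Ctsb also belong to the disease-associated list. Lgals3bp in library 2 was most like Grn (0.40), Ctsz (0.34), the complement gene C1qa (0.35) and the MHC class I genes H2-K1 (0.36) and H2-D1 (0.35). In library 1, over 3160 cells and 8391 genes, Lgals3bp was most like Ifitm3 (0.37), Ifi27l2a (0.32) and B2m (0.31). Of these, Ifi27l2a also belongs to the type I interferon list. No gene reached 0.3 with Lgals3 in library 1, or with Lgals1, Lgals8 or Lgals9 in either library.

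The partners of galectins were described from 3 lists in microglia-like cells. Counter-receptors are the glycoproteins that galectins bind. Of 18, 17 had at least 20 UMIs, of which 8 were higher and 9 lower in library 2, and their median was -0.02 (log2), against -0.00473 over all genes, of which 49.3% were higher. Past 2-fold with 10 CPM added to each level, 2 were higher, against 2.87% of all genes, and none was as much lower, against 2.25%. The lymphocyte activation gene Cd69 had 53.4 CPM in library 2 and 5.27 CPM in library 1, a ratio of 10.1 (8.41 to 12.3). The hyaluronan receptor Cd44 had 30.7 CPM in library 2 and 3.32 CPM in library 1, a ratio of 9.24 (7.30 to 11.8). The integrin subunit Itgb1 had 115 CPM in library 2 and 173 CPM in library 1, a ratio of 0.664 (0.630 to 0.700). Lysosomal Lamp1 had 1679 CPM in library 2 and 1158 CPM in library 1, a ratio of 1.45 (1.43 to 1.47). Havcr2, which encodes TIM-3, had 118 CPM in library 2 and 148 CPM in library 1, a ratio of 0.798 (0.756 to 0.842), so it was lower where Lgals9 was higher.

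Glycan enzymes build or cap the sugars that galectins read. Of 15, 4 were higher and 11 lower in library 2, where 49.3% of all genes were higher. Their median was -0.07 (log2). Past 2-fold with 10 CPM added to each level, 1 was higher and 1 lower, against the same 2.87% and 2.25% of all genes. The ratios of single genes below are without the added 10 CPM. Man2a1, a Golgi mannosidase on the way to complex N-glycans, had 32.6 CPM in library 2 and 9.88 CPM in library 1, a ratio of 3.30 (2.84 to 3.85). St3gal6, which adds alpha-2,3 sialic acid, had 121 CPM in library 2 and 340 CPM in library 1, a ratio of 0.357 (0.341 to 0.374). St6gal1, which adds the alpha-2,6 sialic acid known to block galectin-1 binding, had 8.30 CPM in library 2 and 21.3 CPM in library 1, a ratio of 0.390 (0.324 to 0.467). C1galt1c1, the chaperone needed for core O-glycans, had 56.1 CPM in library 2 and 27.3 CPM in library 1, a ratio of 2.05 (1.86 to 2.26). The branching enzymes differed little, with Mgat1 at 112 CPM in library 2 and 119 CPM in library 1, and Mgat4a at 133 CPM in library 2 and 121 CPM in library 1.

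Of 15 genes of the response to damaged lysosomes, in which galectin-3 and galectin-8 call in autophagy receptors, 5 were higher and 10 lower in library 2. Of all genes 49.3% were higher, and the median of the list was -0.16 (log2). With 10 CPM added to each level, none was at least 2-fold higher, against 2.87% of all genes, and 1 was as much lower, against 2.25%. That was Sqstm1, the autophagy receptor p62, with 142 CPM in library 2 and 522 CPM in library 1, a ratio of 0.273 (0.261 to 0.284). Tax1bp1, another such receptor, had 107 CPM in library 2 and 194 CPM in library 1, and Map1lc3b had 183 CPM in library 2 and 255 CPM in library 1. Gabarap ran the other way, with 528 CPM in library 2 and 410 CPM in library 1.

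**Figure D5:**
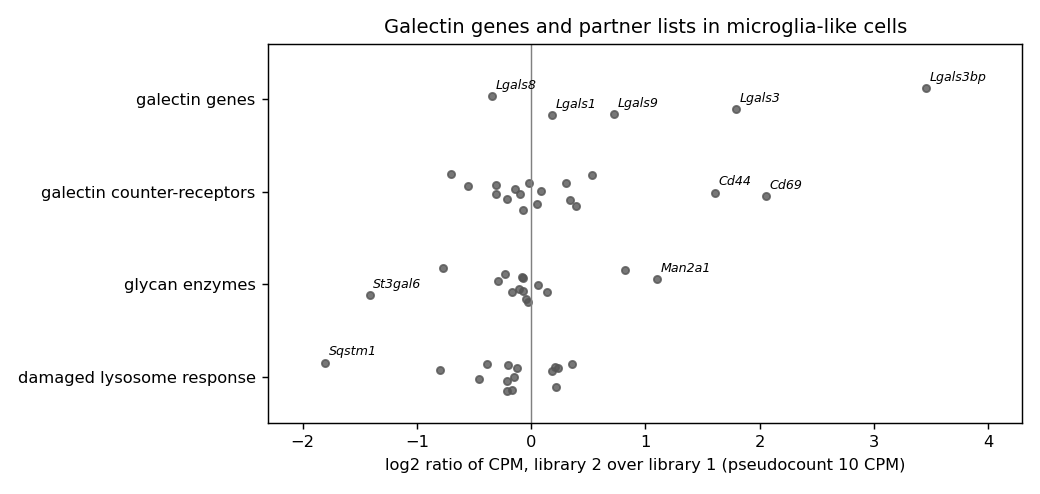
Log2 ratio of CPM, library 2 over library 1 with 10 CPM added to each, in microglia-like cells, with 1 point per gene for the galectin genes and 3 partner lists. Lgals3bp at 3.45 lies beyond every partner gene plotted, and Cd69, Cd44, Man2a1, St3gal6 and Sqstm1 are the partner genes past 2-fold in either direction.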

How the data were processed

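The authors deposited 1 matrix of unnormalised UMI counts by gene and barcode. Per the file headers it came from Cell Ranger 3.1.0 in format version 2. Per the submitters' processing notes, bcl2fastq and UMI-tools were run too. The build and annotation used for counting were not given in the sources used here, and coordinates besides the RefSeq windows are therefore left out. No column of other samples was present.

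Everything else was computed here with Scanpy 1.11.5, igraph 0.11.9, SciPy 1.17.1, NumPy 2.4.6, pandas 2.3.3 and Matplotlib 3.10.9 under Python 3.11.15. No doublet caller was run, so doublets may remain. Cells were clustered by the Leiden method at resolution 1 on 30 components, 15 neighbours and 2000 variable genes, with 156 listed genes held out. UMIs were summed per library and class and divided by their total to give CPM. Levels have exact Poisson intervals, shares exact binomial ones and ratios exact conditional binomial ones. Beside a count of 0 stands the share that 3 counts would make. Ratios on the log2 scale used 10 CPM as pseudocount, which understates changes of low genes. The scripts were tested on simulated data.

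A cluster was named after the list that had 3 or more markers in its top 50 folds. It stayed unnamed if 2 or more lists reached that mark, if 2 or more other lists entered its 10 highest folds (epithelial cells excepted), or if its relative depth was under 0.333 with none of its own markers among those 10. With no list at that mark, a cluster was microglia-like if at least 7 of 8 microglia markers were at 100 CPM, its relative depth was at least 0.333 and no other list led its 10 highest folds. That rule was written after clusters had been seen. It named clusters 2 and 3, of library 1, and clusters 11 to 14, mostly of library 2. Clusters 0, 1 and 4, nearly all of library 1, were named by 3 or more microglia markers in their top 50 folds. Members, lists and designs were chosen with earlier results of these data known. Named genes were the 5 members, other family genes, the 4 highest and 4 most different of each partner list, drawn on for examples, and genes most like a member at r of 0.3 or more. Marker genes, and the list genes given as examples of a response, fall outside that rule. Some single genes are not reported here. Lgals6 and Clec7a, for which the feature list gives no symbol, were not used here.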

Additional observations from a re-analysis of the deposited data

Results flagged for a closer look

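In olfactory-ensheathing-like cells the Lgals3 level was 34.7 CPM (20.9 to 54.1) in library 2 and 75.8 CPM (44.9 to 120) in library 1, a ratio of 0.457 (0.227 to 0.924). In microglia-like cells the Lgals3 ratio was 6.26 (5.39 to 7.29). With 1 library on each side the difference between the classes was not tested. Of the 18 UMIs in the ensheathing-like cells of library 1, 16 were in a single cell. Without that cell the direction turned round, with 34.7 CPM in library 2 and 8.77 CPM (1.06 to 31.7) in library 1. In these cells of library 2, a single cell held 8 of 19 UMIs. Barcodes with 3 or more of the 8 microglia markers held 15 of the 19 UMIs in library 2 and 17 of the 18 in library 1.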

How the results depend on the processing

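Of 76 alternative values, 50 kept their direction within counting error, 22 moved further and 4 reversed. One is the log2 ratio of Lgals3 in olfactory-ensheathing-like cells, -0.94 as reported and 1.251 without the library 1 barcode holding most Lgals3. The other 3 are the log2 ratio of Lgals1 over all kept cells, 0.23 as reported, which was -0.83 as a mean of per-cell CPM, -0.0583 without the deepest 5% of cells and -0.14 without the barcode holding most Lgals1. The alternatives that leave out single barcodes, the deepest cells or clusters 6 and 7 were chosen after seeing the data. No other value changed direction.

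A pseudocount of 1 CPM gave log2 ratios over kept cells of 0.45 for Lgals1, 1.88 for Lgals3 and 3.50 for Lgals3bp, and in microglia-like cells 0.59, 2.52 and 3.59 for the same genes. Totals without mitochondrial, ribosomal protein and haemoglobin genes gave 3.50 for Lgals3bp, -0.25 for Lgals8 and 0.81 for Lgals9. The mean of per-cell CPM gave 3.46 for Lgals3bp. Without the deepest 5% of cells Lgals3bp stood at 3.52 over kept cells and 3.57 in microglia-like cells. Without clusters 6 and 7, Lgals1 stood at 0.0857 and Lgals3 at 1.64. The difference in the share of kept cells with a UMI, library 2 minus library 1, was 0.328 percentage points for Lgals1, 3.103 for Lgals3, 50.6 for Lgals3bp, -0.906 for Lgals8 and 6.01 for Lgals9 after thinning to 1000 UMIs. Thinned to 2000 it was 6.49 for Lgals3, 65.0 for Lgals3bp, -3.31 for Lgals8 and 7.87 for Lgals9. On all UMIs it was 1.65 for Lgals1, 16.6 for Lgals3, 61.1 for Lgals3bp and 25.5 for Lgals9. A greater depth detects more cells by construction, and for the other shifts the cause was not tested.

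No paired analysis was possible because each library is 1 pool with no replicate number. Low counts limit Lgals1 in microglia-like cells and all members outside them, where intervals are wide. The spread between mice cannot be seen in pools.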
